A study of Mus musculus with 8 samples.

Results

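Emx1, Emx2, Neurod1, Neurod2, Neurod4 and Neurod6 are transcription factor genes of the cerebral cortex, and 2 of them are also the loci that carry the Cre drivers of the study: Emx1 for Emx1Cre and Neurod6, also called Nex, for NexCre. They were taken as the rows of the 2 deposited count tables that bear these symbols, which gave 6 of 55202 genes. Emx1 fell to about a 0.315-fold level in Emx1Cre mutants, and it was the only gene of the 6 that passed the test in either line. Neurod6 was lower in both libraries labelled NexCre mutants than in both NexCre controls, and Neurod1 lay above its controls in that line and below them in the Emx1Cre line, but none of these differences passed the test over all genes. In the Emx1Cre line the fall of Neurod1 rested on control replicate 1, without which its log2 fold change was -0.10. Beside Neurod6, the long non-coding RNA gene Gm3279 rose 28.6-fold in the libraries labelled NexCre mutants.

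Emx1 and Emx2 encode homeodomain proteins of the dorsal telencephalon. Emx2 acts in cortical progenitors, where it takes part in setting the areas of the cortex, and Emx1 is made in progenitors and in the excitatory neurons born from them. The Neurod genes encode basic helix-loop-helix (bHLH) factors that follow the neurogenins in the making of neurons: they pair with E proteins, bind E-boxes, and are held back by Id proteins. In the cortex Neurod1 is switched on around the last division, while Neurod2 and Neurod6 stay on in differentiated excitatory neurons. Neurod4 is best known from retina, midbrain and hindbrain.

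The tissue was subplate, the layer of early neurons beneath the cortical plate, cut by hand from the somatosensory cortex of newborn mice of mixed strain at postnatal day 0. The Emx1Cre mutants were Emx1Cre11.5;Lhx2lox/lox, in which the LIM-homeodomain gene Lhx2 is deleted in cortical progenitors, and the NexCre mutants were NexCre;Lhx2lox/lox, in which it is deleted in postmitotic excitatory neurons. Each line had its own controls, whose genotype is given as WT. The sample titles give controls to each line, whereas the description of the design speaks of a single control group of 2 samples, and the titles were followed. Whether the controls carried a Cre allele or a floxed allele is not given in the sources used here, so in each line the driver allele and the loss of Lhx2 cannot be told apart. Each of the 4 groups had 2 libraries, and each library was a pool of 2 brains, so the p-values measure the spread between pools.

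Reads ran from 31.2 to 64.4 M per library. Levels are given as CPM, the share of a library's reads scaled to a common total by the trimmed mean of M values, and per kilobase of exon (CPM per kb) where genes are compared with each other. A gene was called changed where its p by the quasi-likelihood test of edgeR, after Benjamini-Hochberg adjustment over the 22820 genes tested, was under 0.05. The 2 lines differed from each other far more than mutants differed from controls: the first principal component, which split the lines, held 79.2% of the variance, and the small nuclear RNA Rn7sk had 1.42 to 32.4 unscaled CPM in the Emx1Cre libraries and 18425 to 23101 CPM in the NexCre libraries. Levels are therefore compared within a line. All 9 subplate markers found in the tables had reads, with a sum of 295 and 295 CPM in Emx1Cre mutants, against 363 and 405 CPM in Emx1Cre controls. That sum was 84.1 and 91.4 CPM in the libraries labelled NexCre mutants, against 96.5 and 87.2 CPM in NexCre controls. NexCre control replicate 1 stood apart in the sum of the 8 thalamic markers. That sum was 84.3 and 80.4 CPM in the libraries labelled NexCre mutants, against 255 and 78.5 CPM in NexCre controls. Tcf7l2, Zic1 and Rora were also highest in this library, but not all markers followed. In NexCre controls Prkcd had 20.7 and 25.5 CPM, Ramp3 8.09 and 8.91 CPM, and Slc6a4 0.685 and 0.999 CPM. Gbx2 had at most 0.280 CPM in every library. The transcription factor gene Lhx9 had 59.9 CPM in NexCre control replicate 1 and at most 1.85 CPM in any other. Without it the log2 fold changes of the NexCre line were -0.90 for Emx1, -0.92 for Neurod6, 0.92 for Neurod1 and 0.02 for Neurod2, against -0.61, -0.75, 0.97 and 0.24 with it.

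Lhx2 itself was read first, as the check of the labels. It had 64.0 and 42.7 CPM in Emx1Cre mutants, against 90.4 and 91.5 CPM in Emx1Cre controls, so both mutants lay below both controls. The log2 difference of -0.77 ± 0.20 (SE) did not pass edgeR's test (adjusted p = 0.273), and it passed DESeq2's (adjusted p = 0.0318). In the other line Lhx2 had 227 and 245 CPM in the libraries labelled NexCre mutants, against 182 and 236 CPM in NexCre controls, with overlapping groups and a log2 difference of 0.18 ± 0.20. Counts over the whole gene do not separate a deleted transcript from an intact one, and they did not check the NexCre label, so that group is named by its label throughout.

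Positions are given on mm10 (GENCODE M21). Emx1 (ENSMUSG00000033726.8) spans chr6:85187438-85204462 on the plus strand and Neurod6 (ENSMUSG00000037984.9) spans chr6:55677822-55681263 on the minus strand. Emx2 (ENSMUSG00000043969.4) lies at chr19:59458372-59465357 on the plus strand. Its first bases are overlapped from the opposite strand by Emx2os, an antisense RNA gene at chr19:59425104-59458635, and since no strand setting is given, reads of the pair cannot be told apart there. Neurod1 (ENSMUSG00000034701.9, chr2:79452521-79456751), Neurod2 (ENSMUSG00000038255.6, chr11:98325415-98329648) and Neurod4 (ENSMUSG00000048015.4, chr10:130268152-130280240) are on the minus strand.

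The members of each family share protein domains, so a read could in principle fit more than 1 of them. The coding stretches below, from the GENCODE M21 transcripts, are shown because they are the most alike parts of each pair, with capitals for the bases that the 2 genes share. Within the homeobox, 74 of 90 bases were identical between Emx1 (coding bases 470 to 559) and Emx2 (458 to 547), and within the bHLH region 70 of 90 were identical between Neurod2 (368 to 457) and Neurod6 (284 to 373).
Emx1: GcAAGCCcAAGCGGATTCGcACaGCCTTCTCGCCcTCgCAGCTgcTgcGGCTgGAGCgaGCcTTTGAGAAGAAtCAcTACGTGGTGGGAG
Emx2: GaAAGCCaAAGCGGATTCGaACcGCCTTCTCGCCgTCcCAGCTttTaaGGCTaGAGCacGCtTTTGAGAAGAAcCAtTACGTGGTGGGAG
Neurod2: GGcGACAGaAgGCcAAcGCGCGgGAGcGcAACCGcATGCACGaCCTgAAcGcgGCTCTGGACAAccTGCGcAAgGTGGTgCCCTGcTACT
Neurod6: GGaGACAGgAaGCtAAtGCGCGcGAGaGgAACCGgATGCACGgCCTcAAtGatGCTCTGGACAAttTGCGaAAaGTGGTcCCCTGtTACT
Over the whole coding sequence, Emx1 and Emx2 were identical at 71.4% of aligned bases, and the pairs of Neurod genes at 60.4% to 68.2%. The longest run shared by any pair in any transcript was 25 bases, between Neurod1 and Neurod2, and the longest shared by Emx1 and Emx2 was 14 bases. Both are shorter than the 100 bp reads.

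The start regions of Neurod6 and Neurod2 are shown because these are the most abundant genes of the group and their levels parted in the NexCre line. They are the bases before the RefSeq start (GRCm38.p6), 5′ to 3′ on the minus strand, with E-boxes (CANNTG, the sites that bHLH factors bind) in capitals. The first covers chr6:55681264-55681513 and the second chr11:98329649-98329895, where the 3 bases next to the start fall in an annotated exon and are left out.
Neurod6: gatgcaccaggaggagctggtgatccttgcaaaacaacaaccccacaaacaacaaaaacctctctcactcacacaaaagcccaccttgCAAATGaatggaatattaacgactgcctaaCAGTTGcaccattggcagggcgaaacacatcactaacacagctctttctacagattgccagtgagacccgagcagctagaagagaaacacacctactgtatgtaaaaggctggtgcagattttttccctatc
Neurod2: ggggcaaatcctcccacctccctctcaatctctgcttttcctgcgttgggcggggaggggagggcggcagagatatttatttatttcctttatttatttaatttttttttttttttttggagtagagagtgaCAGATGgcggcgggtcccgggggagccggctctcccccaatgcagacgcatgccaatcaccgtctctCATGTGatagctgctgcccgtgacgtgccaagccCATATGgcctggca
Neurod6 held 2 E-boxes, at 162 and 132 bases before the start, and Neurod2 held 3, at 118, 51 and 17 bases. In the other windows of 250 bases, Emx1 held 1 and Neurod1 held 1, while those of Emx2 and Neurod4 held no E-box. Annotated exons of the gene covered all 250 bases for Emx1 and for Emx2, and 115 bases for Neurod1. They covered 0 and 84 bases of the 2 Neurod4 windows. The windows of Emx1 and Emx2 are thus exon sequence by that annotation. E-boxes are common: on either strand, 66.2% of 32841 RefSeq windows of this length held CANNTG. The form CAGATG, the first of the Neurod2 window, was in 14.4% of all windows. The form CATATG, shared by the windows of Neurod1 and Neurod2, was in 3.47%, and both forms are also counted in the share for any E-box. The homeodomain core TAATTA, searched on both strands, was in no window of the 6 genes and in 4.84% of all windows.

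Per kilobase, Neurod6 and Neurod2 stood above the other members in every group. Neurod6 had 124 ± 37.3 CPM per kb in Emx1Cre mutants and 150 ± 9.08 CPM per kb in Emx1Cre controls (mean ± SD, n = 2 each). Neurod2 had 56.3 ± 2.72 CPM per kb in Emx1Cre mutants and 88.3 ± 33.5 CPM per kb in Emx1Cre controls. Emx1 came next, with 10.4 ± 1.18 CPM per kb in Emx1Cre mutants and 33.1 ± 3.88 CPM per kb in Emx1Cre controls. The bottom of the order held Emx2 and Neurod1, which overlapped each other in Emx1Cre controls, and Neurod4, which had 0 to 4 reads in every Emx1Cre library.

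The order was not the same in all 4 groups. In the libraries labelled NexCre mutants Neurod2 (127 ± 19.9 CPM per kb) and Neurod6 (125 ± 26.4 CPM per kb) did not separate, whereas in NexCre controls Neurod6 (210 ± 36.8 CPM per kb, n = 2) lay above Neurod2 (107 ± 24.8 CPM per kb). Neurod1 reached 12.3 ± 0.718 CPM per kb in the libraries labelled NexCre mutants, where it overlapped with Emx1 at 12.4 ± 0.472 CPM per kb. In NexCre controls Neurod1 had 6.27 ± 0.326 CPM per kb and Emx1 had 18.9 ± 5.90 CPM per kb. The plot of levels by library shows all 8 libraries for each gene.

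**Figure D1:**
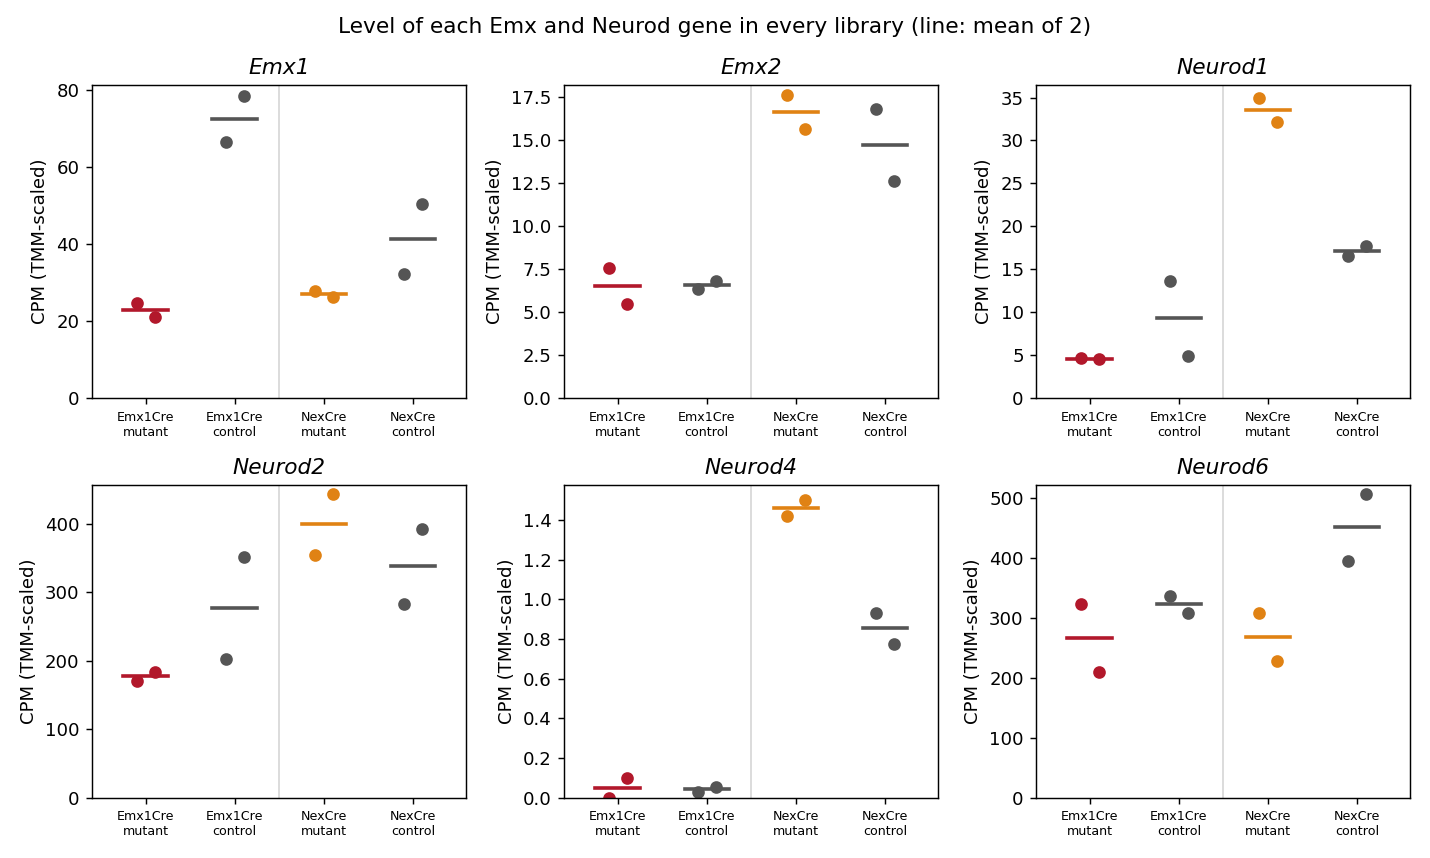
Level of each of the 6 genes in every library, in CPM scaled by the trimmed mean of M values (y axes start at 0), with mutants left of controls in each line, a point per library and a bar at the mean of 2. Emx1 sits at 21.0 to 24.6 CPM in Emx1Cre mutants, against 66.4 to 78.4 CPM in Emx1Cre controls, and Neurod6 sits at 228 to 308 CPM in the libraries labelled NexCre mutants, against 395 to 507 CPM in NexCre controls.

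Emx1, the locus of the Emx1Cre driver, had 24.6 and 21.0 CPM in Emx1Cre mutants, against 66.4 and 78.4 CPM in Emx1Cre controls. The groups were far apart and each was narrow. The log2 fold change was -1.66 ± 0.22 (95% interval -2.15 to -1.17, n = 2 against 2), and Emx1 fell by edgeR's quasi-likelihood test (adjusted p = 0.0334) and by DESeq2 (adjusted p = 9.46e-09). The fold change stayed between -1.79 and -1.55 when any 1 library was left out, but the call was lost without any of 6 libraries: edgeR's adjusted p was 0.0519 to 0.163 without any 1 Emx1Cre library, and 0.0709 and 0.0776 without replicate 1 or 2 of the NexCre mutant label. With either NexCre control left out edgeR's adjusted p was 0.0223 and 0.0245.

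That call was 1 of 6 members, against 0.0789% of all genes tested in the Emx1Cre comparison, and it was also the only member that DESeq2 called, against 1.31%. At an unadjusted p under 0.05 edgeR gave 3 members lower (Emx1, Neurod1 and Neurod2) and 0 higher, against 3.07% and 4.52% of all genes tested. Both mutants lay below both controls for the same 3 of 6 members, against 15.2% of all genes tested, and 0 lay above, against 15.1%. The median log2 fold change of the 5 members other than Neurod4 was -0.65, against 0.00 over all genes tested.

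In the NexCre line, where Emx1 does not carry the driver, Emx1 had 27.8 and 26.3 CPM in the libraries labelled NexCre mutants, against 32.1 and 50.3 CPM in NexCre controls. The libraries with the mutant label were both lower, but the controls differed from each other by more than the gap. The log2 fold change of -0.61 ± 0.22 (95% interval -1.09 to -0.13) did not pass edgeR's test (adjusted p = 1), and it was -0.25 without NexCre control replicate 2. The difference between the effects in the 2 lines, Emx1Cre minus NexCre, was -1.06 ± 0.30 (95% interval -1.74 to -0.38), which did not pass either (adjusted p = 0.648). A fall of Emx1 in the Emx1Cre line alone was thus not shown.

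Other markers moved with Emx1 in the Emx1Cre line. The 13 markers of pallial excitatory neurons summed to 1943 and 1964 CPM in Emx1Cre mutants, against 2254 and 3094 CPM in Emx1Cre controls. Of the 13, 0 were called by edgeR and DESeq2 called 2 (Rorb and Mef2c, both lower), against 1.31% of all genes tested. Without overlap 5 were lower and 2 higher (Tbr1 and Camk2a), against 15.2% and 15.1%. Mef2c, a MADS-box factor of excitatory neurons, had 550 and 401 CPM in Emx1Cre mutants, against 850 and 1283 CPM in Emx1Cre controls. Without Mef2c, a choice made after seeing the data, the other 12 summed to 1392 and 1563 CPM in Emx1Cre mutants, against 1405 and 1811 CPM in Emx1Cre controls, and the groups overlapped. Of the 9 subplate markers, 0 were called by edgeR and DESeq2 called 3 (Cplx3, Nxph4 and Kcnab1, all lower), against 1.31%. Without overlap 5 of the 9 were lower and 2 higher, against 15.2% and 15.1%. The 8 astrocyte markers summed to 4136 and 3530 CPM in Emx1Cre mutants, against 1729 and 1674 CPM in Emx1Cre controls. All 8 were higher in both mutants, against 15.1% of all genes tested. Of them 1 was called by edgeR and 7 by DESeq2, against 0.0789% and 1.31%. The 7 meningeal markers summed to 43.9 and 155 CPM in Emx1Cre mutants, against 20.7 and 17.9 CPM in Emx1Cre controls, and no marker of these lists was at 0. The part of these shifts in the result for Emx1 was not tested, and in bulk tissue fewer cells of a type and less RNA per cell cannot be told apart.

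Emx2, the sister gene on another chromosome, had 7.57 and 5.50 CPM in Emx1Cre mutants, against 6.34 and 6.81 CPM in Emx1Cre controls. It had 17.6 and 15.7 CPM in the libraries labelled NexCre mutants, against 16.8 and 12.6 CPM in NexCre controls. The groups overlapped in both lines. The log2 fold changes were -0.01 ± 0.25 (95% interval -0.56 to 0.55) in the Emx1Cre line and 0.18 ± 0.25 (-0.37 to 0.73) in the NexCre line, so changes within these limits could not be told from none with 2 pools a group. Emx2os, its antisense neighbour, had 39 and 10 reads in Emx1Cre mutants, against 18 and 11 reads in Emx1Cre controls, and 41 and 33 reads in the libraries labelled NexCre mutants, against 36 and 22 reads in NexCre controls. These are few beside the 222 to 670 reads of Emx2 per library.

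The groups of Emx2 overlapped, and the ratio of Emx1 to Emx2 reads within a library, which no scaling can alter, followed the level of Emx1. It was 3.26 and 3.82 in Emx1Cre mutants, against 10.5 and 11.5 in Emx1Cre controls. It was 1.58 and 1.68 in the libraries labelled NexCre mutants, against 1.91 and 3.99 in NexCre controls. The groups did not overlap in either line. On the log2 scale the difference was -1.64 (pooled SD 0.134) in the Emx1Cre line and -0.76 (pooled SD 0.533) in the NexCre line. With 2 libraries against 2 the exact two-sided permutation test gave p = 0.333 for both, the smallest it can give.

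Neurod6, the locus of the NexCre driver, had 308 and 228 CPM in the libraries labelled NexCre mutants, against 395 and 507 CPM in NexCre controls. Both libraries with the mutant label were lower than both controls. The log2 fold change was -0.75 ± 0.23 (95% interval -1.26 to -0.24), which missed edgeR's threshold (adjusted p = 0.950, unadjusted p = 0.00857). It ran from -0.996 to -0.547 when each library was left out in turn. DESeq2 did not call it (adjusted p = 0.194).

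In the Emx1Cre line Neurod6 had 323 and 209 CPM in Emx1Cre mutants, against 336 and 309 CPM in Emx1Cre controls, and 1 mutant lay between the controls. The log2 fold change was -0.28 ± 0.23 (95% interval -0.79 to 0.23). Without Emx1Cre mutant replicate 2 it was 0.0058, so that library alone gave it its direction. The same library stood apart in the sum of the 9 striatal markers. That sum was 156 and 507 CPM in Emx1Cre mutants, against 177 and 180 CPM in Emx1Cre controls. Of these markers Drd1 did not follow, with 45.4 and 39.0 CPM in Emx1Cre mutants, against 41.6 and 40.3 CPM in Emx1Cre controls. The part of the striatal markers in the level of Neurod6 was not tested. The difference between the effects in the 2 lines was 0.47 ± 0.32, with an unadjusted p of 0.175 by edgeR, so the 2 lines were not shown to differ.

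Across the whole NexCre comparison 0 of 6 members were called by edgeR or by DESeq2, against 0.0307% and 0.333% of all genes tested. At an unadjusted p under 0.05 the edgeR test gave 1 member higher (Neurod1) and 2 lower (Emx1 and Neurod6), against 1.69% and 2.27% of all genes tested. Of the 6 members, 2 lay above the controls without overlap (Neurod1 and Neurod4), against 18.1% of all genes tested, and 2 below (Emx1 and Neurod6), against 17.7%. The plot of fold changes with their intervals sets the lines side by side.

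**Figure D2:**
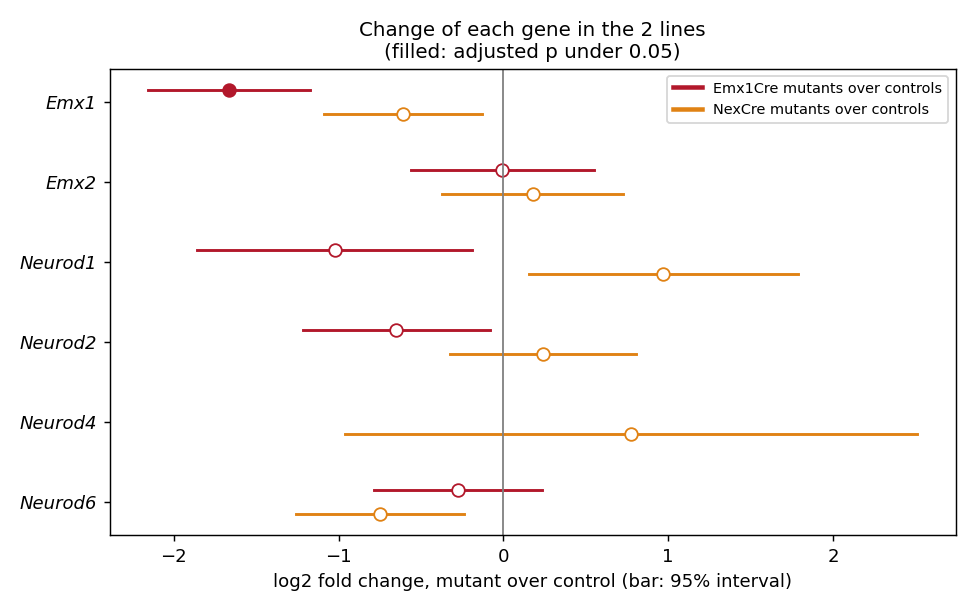
Log2 fold change of each gene, mutants over controls, in the Emx1Cre line (red, upper) and the NexCre line (orange, lower), with 95% intervals from the edgeR fit. Filled circles passed an adjusted p of 0.05, which Emx1 in the Emx1Cre line did alone, at -1.66, and Neurod4 has no value in the Emx1Cre line because it had 0 to 4 reads there.

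Neurod2, the late bHLH partner of Neurod6 in excitatory neurons, had 355 and 443 CPM in the libraries labelled NexCre mutants, against 282 and 393 CPM in NexCre controls. These groups overlapped, and the log2 fold change was 0.24 ± 0.25. Neurod2 had 171 and 183 CPM in Emx1Cre mutants, against 203 and 352 CPM in Emx1Cre controls, with both mutants below both controls. That log2 fold change was -0.65 ± 0.25 (95% interval -1.21 to -0.08) and did not pass edgeR's test (adjusted p = 0.591). It was -0.21 without Emx1Cre control replicate 2, the library with the highest level of the line.

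The ratio of Neurod6 to Neurod2 reads was 0.869 and 0.515 in the libraries labelled NexCre mutants, against 1.40 and 1.29 in NexCre controls. Neurod2 thus had more reads than Neurod6 in both libraries with the mutant label, and fewer in both controls. The log2 difference was -1.01 (pooled SD 0.382), at the smallest exact permutation p of 0.333. In the Emx1Cre line the ratio was 1.89 and 1.14 in Emx1Cre mutants, against 1.65 and 0.877 in Emx1Cre controls, with overlapping groups and an exact permutation p of 0.667. The 13 pallial excitatory markers summed to 3233 and 3468 CPM in the libraries labelled NexCre mutants, against 3469 and 4075 CPM in NexCre controls, and their part in the level of Neurod6 was not tested.

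**Figure D3:**
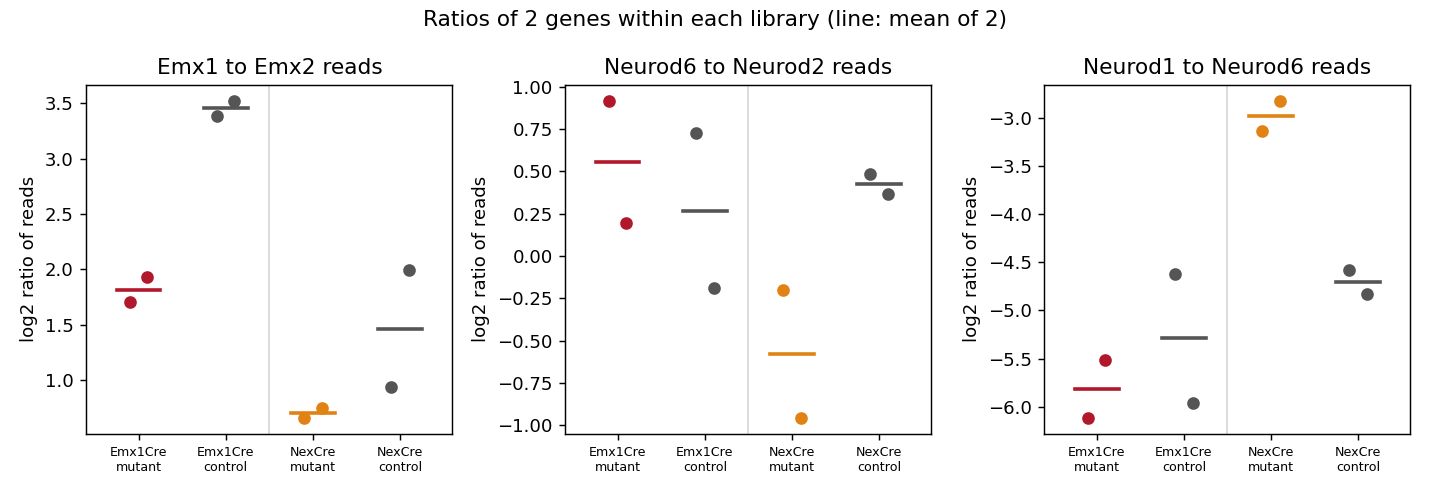
Log2 ratio of the reads of 2 genes within each library, with mutants left of controls in each line, a point per library and a bar at the mean of 2. Mutants minus controls, the mean log2 ratio of Emx1 to Emx2 differs by -1.64 in the Emx1Cre line, and in the NexCre line that of Neurod6 to Neurod2 differs by -1.01 and that of Neurod1 to Neurod6 by 1.72.

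Gm3279, a long intergenic non-coding RNA gene (ENSMUSG00000108063.1, chr6:55684571-55694574, plus strand), starts 3.308 kb from Neurod6 on the far side of the Neurod6 start, and the genes run away from each other. It had 4.60 and 6.55 CPM in the libraries labelled NexCre mutants, from 175 and 270 reads, against 0.156 and 0.225 CPM in NexCre controls, from 5 and 9 reads. The groups did not come near each other. Gm3279 rose by 4.84 ± 0.53 on the log2 scale (95% interval 3.65 to 6.02, edgeR adjusted p = 0.0221). DESeq2 called it too (adjusted p = 1.75e-10). The edgeR call was lost without NexCre control replicate 1 (adjusted p = 0.149) or without replicate 1 or 2 of the NexCre mutant label (0.124 and 0.178), while the log2 value stayed between 4.56 and 5.14.

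In the Emx1Cre line Gm3279 had 0.426 and 0.396 CPM in Emx1Cre mutants, from 24 and 16 reads, against 0.186 and 0.108 CPM in Emx1Cre controls, from 12 and 4 reads. Both mutants were higher, and the log2 difference of 1.42 ± 0.52 did not pass edgeR's test (adjusted p = 0.551). The difference between the effects in the lines, Emx1Cre minus NexCre, was -3.42 ± 0.74. It missed edgeR's threshold (adjusted p = 0.512) and passed DESeq2's (adjusted p = 0.0477).

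Within 500 kb of the 6 genes lay 16 tested genes at Emx1, 10 at Emx2, 3 at Neurod1, 31 at Neurod2, 8 at Neurod4 and 8 at Neurod6, and Gm3279 was the only gene of these that edgeR called in either line. At Emx1 in the Emx1Cre line, 0 of 16 neighbours were called by edgeR, against 0.0789% of all genes tested. At an unadjusted p under 0.05, 2 of the 16 were higher, against 4.52%, and their median log2 fold change was -0.10, against 0.00 over all genes tested. Both lay within 100 kb, where 2 of 3 tested neighbours were higher at that p and the median was 0.60. The nearer was Sfxn5, 8.587 kb away, with 119 and 115 CPM in Emx1Cre mutants, against 86.9 and 67.9 CPM in Emx1Cre controls (log2 0.60 ± 0.22). The other was the pseudogene Spr-ps1, 31.215 kb away, with 1.21 and 1.53 CPM in Emx1Cre mutants, against 0.357 and 0.324 CPM in Emx1Cre controls (log2 1.99 ± 0.57). Spr, also within 100 kb, had a log2 difference of -0.28 ± 0.17. Higher neighbours were not particular to the Emx1 locus in this line. Within 500 kb, at an unadjusted p under 0.05 by edgeR, 3 of 8 were higher at Neurod6, 2 of 10 at Emx2 and 1 of 3 at Neurod1. At Neurod2 0 of 31 were higher and 1 was lower, and at Neurod4 0 of 8 were higher and 0 lower. At Neurod6 in the NexCre line the median of the 8 neighbours was -0.20. The same single call was found within 100 kb and within 1 Mb.

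**Figure D4:**
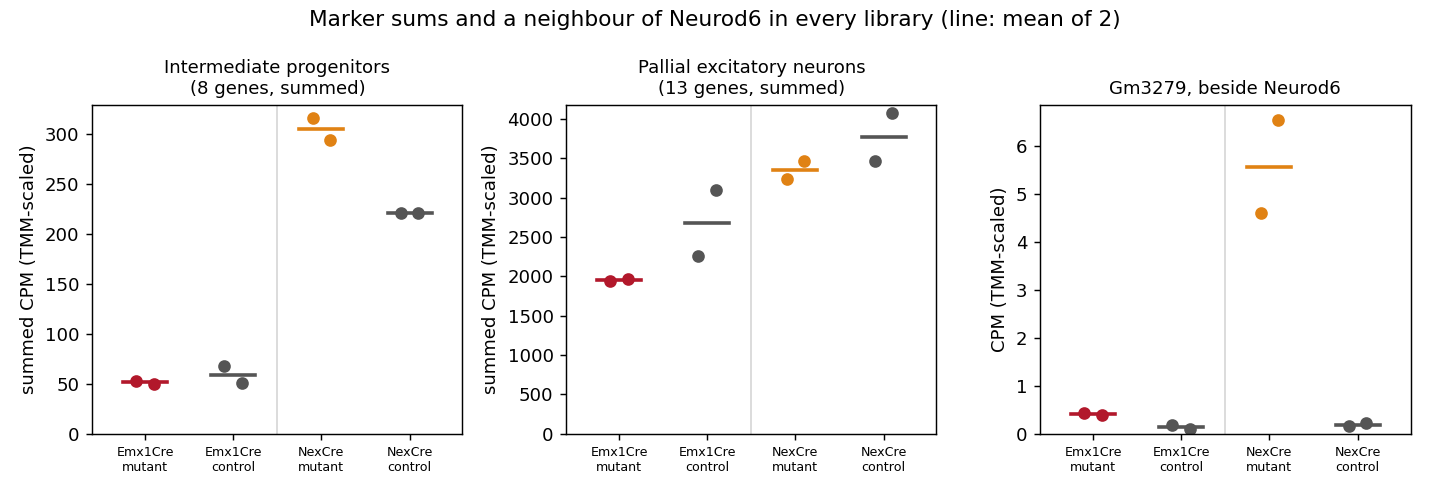
Summed level of 8 intermediate progenitor markers and of 13 pallial excitatory markers, and level of Gm3279, in CPM per library, with mutants left of controls in each line and a bar at the mean of 2. Progenitor markers sum to 294 to 316 CPM in the libraries labelled NexCre mutants, against 221 CPM in both NexCre controls, and Gm3279 stands at 4.60 to 6.55 CPM in them and under 0.5 CPM in every other library.

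Neurod1, the Neurod gene switched on around the last division, had 34.9 and 32.2 CPM in the libraries labelled NexCre mutants, against 16.5 and 17.8 CPM in NexCre controls. Both groups were narrow and clear of each other. The log2 fold change was 0.97 ± 0.37 (95% interval 0.16 to 1.79), which did not pass edgeR's test over all genes (adjusted p = 1, unadjusted p = 0.0242). It ran from 0.90 to 1.03 when each library was left out in turn.

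In the Emx1Cre line Neurod1 had 4.65 and 4.55 CPM in Emx1Cre mutants, against 13.7 and 4.95 CPM in Emx1Cre controls. Both mutants were lower, but control replicate 2 lay next to them. The log2 fold change of -1.02 ± 0.37 (edgeR adjusted p = 0.545) was -0.10 without Emx1Cre control replicate 1, so that library set its size. The difference between the effects in the 2 lines was -1.99 ± 0.52 (95% interval -3.16 to -0.83). It did not pass edgeR's test (adjusted p = 0.640) and passed DESeq2's (adjusted p = 0.0312), and without Emx1Cre control replicate 1 it was -1.07.

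Of the 6 members, 0 were called by edgeR for the difference between lines, against 0.00438% of all genes tested, and 1 (Neurod1) by DESeq2, against 0.421%. At an unadjusted p under 0.05 edgeR gave 3 lower (Emx1, Neurod1 and Neurod2) and 0 higher, against 2.06% and 3.38% of all genes tested.

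The ratio of Neurod1 to Neurod6 reads sets an early gene of the family against a late one. It was 0.113 and 0.141 in the libraries labelled NexCre mutants, against 0.0418 and 0.0350 in NexCre controls. That is a log2 difference of 1.72 (pooled SD 0.203), with no overlap and the smallest exact permutation p of 0.333. It was 0.0144 and 0.0218 in Emx1Cre mutants, against 0.0406 and 0.0160 in Emx1Cre controls, and the groups overlapped. In the NexCre line Neurod6 is the driver locus, and the part of the driver allele in the ratio was not tested.

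Neurod4 was near the limit of detection. It had 0 and 4 reads in Emx1Cre mutants, against 2 and 2 reads in Emx1Cre controls, which allows no fold change, and it passed the filter on low counts through the NexCre libraries. There it had 54 and 62 reads (1.42 and 1.503 CPM) in the libraries labelled NexCre mutants, against 30 and 31 reads (0.934 and 0.774 CPM) in NexCre controls. The libraries with the mutant label were both higher, as for Neurod1, and the log2 fold change was 0.78 ± 0.78 (95% interval -0.96 to 2.51, unadjusted p = 0.342 by edgeR).

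The sum of the 8 intermediate progenitor markers lay beside these values for Neurod1 and Neurod4. It was 316 and 294 CPM in the libraries labelled NexCre mutants, against 221 and 221 CPM in NexCre controls, and 5 of the 7 markers tested were higher without overlap, against 18.1% of all genes tested. Sstr2, a somatostatin receptor, had a log2 difference of 0.57 ± 0.18, and Neurog2, the neurogenin upstream of the Neurod genes, had 19.7 and 13.4 CPM in the libraries labelled NexCre mutants, against 9.09 and 11.04 CPM in NexCre controls. Of the 7, 0 were called by edgeR or by DESeq2, and 1 was higher by edgeR at an unadjusted p under 0.05, against 1.69% of all genes tested. The sum was 52.9 and 50.3 CPM in Emx1Cre mutants, against 67.9 and 50.3 CPM in Emx1Cre controls. The part of these markers in the level of Neurod1 was not tested.

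Of 16 listed genes of the neurogenin and Neurod cascade and its partners other than the 6, 13 were tested, and Neurog3 and Atoh1 had 0 reads in every library. Of the 13, 0 were called by edgeR in either line, and DESeq2 called 2 (Insm1 and Bhlhe22, both lower) in the Emx1Cre line, against 1.31% of all genes tested, and 0 in the NexCre line. In the Emx1Cre line edgeR's unadjusted p was under 0.05 for 4 that were lower and 0 that were higher, against 3.07% and 4.52% of all genes tested, with a median log2 fold change of -0.53. Nhlh1 is 1 of these 4, with 0 and 0 reads in Emx1Cre mutants, against 8 and 0 reads in Emx1Cre controls, so it allows no fold change in that line. Without Nhlh1, a choice made after seeing the data, the counts were 3 lower and 0 higher of 12, with a median of -0.46. In the NexCre line 1 was higher and 0 lower, against 1.69% and 2.27%, with a median of 0.39. There 7 of 13 lay above the controls without overlap, against 18.1% of all genes tested (without Nhlh1, 6 of 12 and a median of 0.25). Neurog2, Eomes and Insm1 are among the 7 and are also intermediate progenitor markers counted above, so the 2 lists are not separate evidence. Atoh7, also among the 7, had only 0.316 and 0.339 CPM in the libraries labelled NexCre mutants, against 0.187 and 0.0499 CPM in NexCre controls. For the difference between lines 5 of the 12 genes other than Nhlh1 were lower at edgeR's unadjusted p under 0.05 and 0 higher, against 2.06% and 3.38%.

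Insm1, a zinc-finger factor of newborn neurons and their progenitors, had 2.39 and 5.30 CPM in Emx1Cre mutants, against 13.3 and 11.5 CPM in Emx1Cre controls. Its log2 difference was -1.71 ± 0.29 (edgeR adjusted p = 0.0965). Bhlhe22, a bHLH repressor of excitatory neurons, had 59.2 and 33.2 CPM in Emx1Cre mutants, against 126 and 111 CPM in Emx1Cre controls (log2 -1.36 ± 0.28, edgeR adjusted p = 0.151). In each of these the mutants lay below both controls. Tbr1, a T-box factor of early-born neurons, had 147 and 183 CPM in the libraries labelled NexCre mutants, against 98.0 and 129 CPM in NexCre controls (log2 0.54 ± 0.18), and Pax6, upstream of the neurogenins, had 45.6 and 52.4 CPM in them, against 33.9 and 33.2 CPM in NexCre controls (log2 0.55 ± 0.27).

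Eomes, the T-box gene of intermediate progenitors, had 0.266 and 0.0248 CPM in Emx1Cre mutants, against 2.40 and 0.162 CPM in Emx1Cre controls. The groups overlapped, and the value turned on control replicate 1, which was also the library with the highest Neurod1 level of that line. The plot of the cascade shows these genes in both lines.

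**Figure D5:**
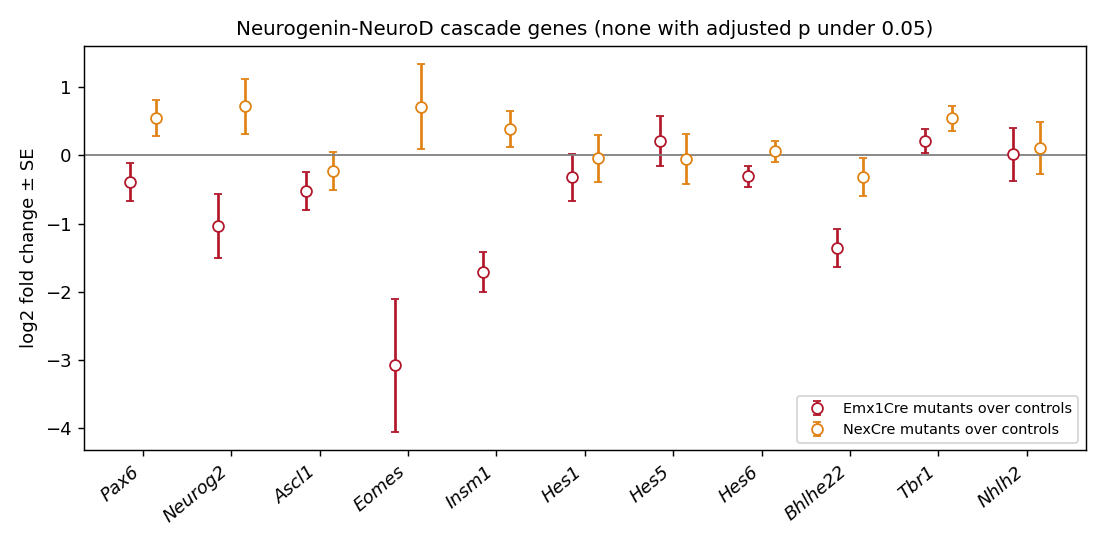
Log2 fold change with its standard error for genes of the neurogenin and Neurod cascade in the Emx1Cre line (red, left) and the NexCre line (orange, right), without Nhlh1 and Atoh7, which were under 2 CPM in every library. None passed an adjusted p of 0.05, and in the Emx1Cre line Insm1 is at -1.71 and Bhlhe22 at -1.36.

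The bHLH proteins work with E proteins and against Id proteins. Of 7 such genes, 0 were called by edgeR in either line, and DESeq2 called Id3 and Id2 in the Emx1Cre line, against 1.31% of all genes tested, and 0 in the NexCre line. In the Emx1Cre line an unadjusted p under 0.05 was reached by 2 that were higher and 1 that was lower, against 4.52% and 3.07% of all genes tested. Id3, an inhibitor of bHLH pairing, had 82.9 and 85.2 CPM in Emx1Cre mutants, against 46.3 and 42.0 CPM in Emx1Cre controls (log2 0.93 ± 0.16, edgeR adjusted p = 0.0965). Id2 had 149 and 167 CPM in Emx1Cre mutants, against 244 and 322 CPM in Emx1Cre controls (log2 -0.84 ± 0.19, edgeR adjusted p = 0.202). The Id genes thus lay on different sides of their controls. Without overlap 2 of the 7 were higher and 1 lower in the Emx1Cre line, against 15.1% and 15.2% of all genes tested. At the same unadjusted p the NexCre line had 1 higher and 0 lower, against 1.69% and 2.27%. There 6 of the 7 lay above the controls without overlap, against 18.1% of all genes tested. In that line Id3 had a log2 difference of 0.47 ± 0.16 and Id1 of 0.42 ± 0.19.

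Of 16 listed patterning factors that work beside the Emx genes, 15 were tested and 0 were called by edgeR in either line, while DESeq2 called Dmrt3 and Lhx2 in the Emx1Cre line, against 1.31% of all genes tested, and 0 in the NexCre line, against 0.333%. At an unadjusted p under 0.05 edgeR gave 1 higher and 2 lower in the Emx1Cre line, against 4.52% and 3.07% of all genes tested, and 1 higher and 0 lower in the NexCre line, against 1.69% and 2.27%. Dmrt3, a doublesex-related factor of the medial and dorsal pallium, had 4.17 and 2.77 CPM in Emx1Cre mutants, against 0.140 and 0.378 CPM in Emx1Cre controls. The groups were clear of each other, with a log2 difference of 3.79 ± 0.71 (edgeR adjusted p = 0.125). Dmrta2, a relative of Dmrt3, had 20.1 and 20.2 CPM in the libraries labelled NexCre mutants, against 10.9 and 16.6 CPM in NexCre controls (log2 0.55 ± 0.25). The median of the 15 was 0.08 in the Emx1Cre line and 0.25 in the NexCre line, against 0.00 over all genes tested in each.

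Genes whose pattern over the 8 libraries was most like that of a member were found by the root-mean-square difference of log2(CPM + 0.5) values centred within each line, among 10994 genes with a mean of at least 5 CPM. For Emx1 they were Tbc1d5 (0.127), Cplx3 (0.151) and Ngfr (0.170), against a spread of Emx1 around its own line means of 0.641. Tbc1d5 had a log2 fold change of -1.62 in the Emx1Cre line (edgeR adjusted p = 0.0334), and Cplx3, one of the subplate markers, had -1.81 (edgeR adjusted p = 0.0640). Both were picked for likeness to Emx1 over these same libraries. Falls near that of Emx1 were thus fixed by the choice and are no separate result. For Neurod1 they were Col22a1 (0.185), Celsr1 (0.257) and Pax6 (0.268), against 0.557. For Neurod6 they were Ndufaf2 (0.150), Atp8a1 (0.152) and Sgtb (0.155), against 0.357.

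For Neurod2 the 3 nearest were Vsig2 (0.0549), Ttc28 (0.0936) and Med13l (0.0936), against a spread of 0.335. For Emx2 they were Nbas (0.0638), Zfp292 (0.0646) and Irs1 (0.0687), against 0.168. For Neurod4 they were Unc5d (0.0513), Plekhh3 (0.0516) and Qsox1 (0.0768), against 0.206. Neurod4 is itself under the 5 CPM set for the genes it was compared with. In the Emx1Cre libraries it had 0 to 4 reads, so the 0.5 added made its values there nearly flat. Likeness in those libraries therefore only picked genes that changed little. The measure is a description over 8 libraries that share their scaling.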

How the data were processed

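RNA-seq was run on 8 libraries of microdissected subplate, 2 in each of 4 groups taken from the sample titles. The authors deposited counts of reads per gene in 1 table per line, as raw counts. HISAT2, SAMtools and DESeq2 were used on build mm10, per the submitters' processing notes. No source used here names the counting program, its annotation or its strand setting. Libraries were made with a TruSeq kit and sequenced as paired 100 bp reads, per the labels' protocols.

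The tables were joined by symbol into 55202 genes. Rows whose symbol had become a date number were left out, with 0.239% to 0.269% of the reads. Of the genes, 53431 (96.8%) matched GENCODE M21 uniquely, which gave positions and exon lengths. The 37 mitochondrial genes had 0 reads in every library. The function filterByExpr of edgeR, run by group with a minimum count of 10 and a minimum total of 15, kept 22820 genes. They were fitted in 1 model of all 8 libraries with edgeR 4.0.16 in R 4.3.3 (scaling by the trimmed mean of M values, prior count 0.125, 4 residual and 5.95 prior degrees of freedom, biological coefficient of variation 26.2%). The quasi-likelihood test was two-sided, adjusted by Benjamini-Hochberg over all genes tested, and was checked on simulated counts. Between the replicates of a group, chi-square per degree of freedom was 25.8 to 87.7, against 1 for counting error alone.

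Ratios used 0.5 reads as a pseudocount and an exact permutation test. Sequences came from RefSeq (GRCm38.p6) for start regions and GENCODE M21 for coding regions, aligned with Biopython 1.88. The members and the 3 pathway and 15 marker lists were chosen with earlier results of these data known. The rule for named genes took the 6 members, Lhx2, Emx2os, the 3 genes most like each member, called neighbours, and from each pathway list the genes called or otherwise the 2 with the lowest p per comparison. Eomes and Sstr2 come from the intermediate progenitor list, whose sum lay beside Neurod1. Sfxn5, Spr-ps1, Spr, Mef2c, Rorb, Camk2a, Nxph4, Kcnab1, Lhx9, Nhlh1, Atoh7, and the comparison of Neurog2 in the NexCre line, were chosen after their values were seen. So were Tcf7l2, Zic1, Rora, Prkcd, Ramp3, Slc6a4, Gbx2, Drd1 and Lmo3. Alternatives were other scalings, no filter or a strict filter (a mean of 20 counts, and 1 CPM reached by 2 libraries), DESeq2 1.42.0, each line fitted alone, a replicate block, and leaving out each library in turn.

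Of the marker lists not described in full with the results, sums per library lay in these ranges over all 8 libraries: radial glia 1115 to 2539 CPM, interneurons 319 to 908, striatum 40.1 to 507, hippocampus 186 to 681, Cajal-Retzius cells 93.8 to 572, oligodendrocyte lineage 301 to 922, microglia 42.1 to 152, endothelium 134 to 367 and choroid plexus 5.92 to 2084. The highest striatal sum was in Emx1Cre mutant replicate 2. In the Emx1Cre line some of these markers were higher at an unadjusted p under 0.05 by edgeR, against 4.52% of all genes tested. They were 6 of 10 for interneurons, 4 of 7 for endothelium, 3 of 5 for hippocampus and 3 of 9 for striatum. Radial glia had 2 of 10 and microglia 1 of 7. For Cajal-Retzius cells 1 of 7 was lower, against 3.07%. In the NexCre line edgeR called 1 of the 5 hippocampal markers, against 0.0307% of all genes tested. This was Lmo3, which was lower (log2 -1.58 ± 0.20, edgeR adjusted p = 0.0462). Of the 8 thalamic markers edgeR called 1 in the Emx1Cre line, against 0.0789%. This was Slc6a4, which was higher (log2 2.48 ± 0.32, edgeR adjusted p = 0.0334). The choroid plexus sum was 2084 and 23.2 CPM in the libraries labelled NexCre mutants, against 372 and 5.92 CPM in NexCre controls.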

Additional observations from a re-analysis of the deposited data

Results flagged for a closer look

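Neurod1 lay on opposite sides of its controls in the 2 lines. It had 4.65 and 4.55 CPM in Emx1Cre mutants, against 13.7 and 4.95 CPM in Emx1Cre controls, and 34.9 and 32.2 CPM in the libraries labelled NexCre mutants, against 16.5 and 17.8 CPM in NexCre controls. The difference between the effects, Emx1Cre minus NexCre, was -1.99 on the log2 scale. It did not pass edgeR's quasi-likelihood test (Benjamini-Hochberg adjusted p = 0.640) and passed DESeq2's (adjusted p = 0.0312). Without Emx1Cre control replicate 2 it was -2.55 and passed edgeR's test (adjusted p = 0.0484), and without Emx1Cre control replicate 1 it was -1.07 and did not (0.658). The 8 intermediate progenitor markers, which lay beside Neurod1 in the NexCre line, had sums of 50.3 to 67.9 CPM over the Emx1Cre libraries and of 221 to 316 CPM over the NexCre libraries, and their part in the difference was not tested.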

How the results depend on the processing

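Of 504 alternatives for single genes, 452 kept direction and side of the threshold. Counts of genes called moved widely, and the cause was not tested. In the Emx1Cre comparison the 18 calls became 585 with no filter on low counts, 0 with the line fitted alone, 82 with a replicate block, 298 with DESeq2 and 0 to 28 without 1 library. In the NexCre comparison the 7 became 251, 17, 22, 76 and 1 to 43. For the difference between lines the 1 call became 408 with no filter, 5 with the block, 96 with DESeq2 and 1 to 31 without 1 library.

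Among the 6 members, the 1 call of the Emx1Cre line became 3 with no filter (Emx1, Neurod1 and Neurod2), 0 with the line fitted alone (edgeR adjusted p of Emx1 0.0659) and 0 to 1 without 1 library. The 0 of the NexCre line became 2 with no filter (Neurod1, and Neurod6 with an edgeR adjusted p of 0.00168), and stayed at 0 without any 1 library. The 0 for the difference became 3 with no filter (Emx1, Neurod1 and Neurod2), 1 with DESeq2 and 0 to 1 without 1 library. With no filter the calls over all genes rose too, and the counts of members at that setting were not set against a share of all genes tested. Calls of members were the same with the replicate block. Same-numbered libraries deviated together (correlation 0.323 in the Emx1Cre line and 0.151 in the NexCre line), but the labels do not say that numbers pair the samples, and each line has 2 pairs.

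Small values turned sign. Emx2 in the Emx1Cre line was 0.0096 with upper-quartile scaling, 0.0033 with no filter, 0.0084 with a strict filter, 0.0046 with the line fitted alone and -0.26 to 0.21 without 1 library. Without 1 library, Emx2 was -0.015 to 0.40 in the NexCre line and -0.44 to 0.032 for the difference, Neurod6 in the Emx1Cre line was -0.63 to 0.0058, and Eomes in that line was -5.67 to 0.00099. The log2 ratio of Emx1 to Emx2 ran from -1.75 to -1.52 in the Emx1Cre line and from -1.29 to -0.23 in the NexCre line without 1 library. The ratio of Neurod6 to Neurod2 ran from -0.17 to 0.74 and from -1.38 to -0.63, and that of Neurod1 to Neurod6 from -1.20 to 0.14 and from 1.57 to 1.88, in the same order of lines. Depth limits Neurod4 and Emx2os, and in the Emx1Cre line Gm3279.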

Other observations

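Otx2, a homeobox gene of the patterning list that is also made in choroid plexus, had 14.2 and 0.0970 CPM in the libraries labelled NexCre mutants, against 15.4 and 0.175 CPM in NexCre controls. Both libraries numbered 1 stood high, and these were also the libraries of that line with the higher choroid plexus sums. Emx2, in the same 4 libraries, had 17.6 and 15.7 CPM in those labelled NexCre mutants, against 16.8 and 12.6 CPM in NexCre controls. Both libraries numbered 1 thus lay above both numbered 2 for Emx2 too, by far less than for Otx2. The part of choroid plexus in the level of Emx2 was not tested.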
